A study of Mus musculus with 12 samples.

Results

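DNA replication genes, 42 among 21627 protein-coding genes on mouse chromosomes 1 to 19 and X, encode the proteins that copy DNA. The genes were taken by name from a list of replication factors: 6 origin recognition subunits, 2 loading factors, the 6 subunits of the MCM ring, 6 helicase activation factors, 3 priming subunits, 4 subunits of polymerase delta, 2 of polymerase epsilon, 6 genes for the clamp and its loader, 3 for the single-strand binding protein, 2 for flap cutting and nick sealing, and 2 for ribonucleotide reductase. All 42 symbols were found in the RefSeq gene table.

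The study profiled 2 genotypes of cultured mouse embryonic fibroblasts (connective tissue cells grown from embryos), namely wild type (WT) and knocked out for Fbxw7 (KO). Cut & Run, in which an antibody leads a nuclease to cut out the DNA around a bound protein or modified histone, was done against MLL4, H3K4me1 and H3K4me3, with 2 libraries for each antibody and genotype, 12 in all. Fbxw7 is the substrate receptor of a ubiquitin ligase that marks cyclin E and Myc, among others, for destruction, and MLL4 is a methyltransferase known for adding H3K4me1 at enhancers. H3K4me3 marks the starts of active genes. The labels give the genotype only as the knockout, with no allele, deletion method, embryo age or strain, and nothing says that paired libraries were made from separate cultures, so differences between them may be technical. Medium with 15% serum was used for all cells.

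Replication begins where the origin recognition complex (Orc1 to Orc6) sits on DNA and, with Cdc6 and Cdt1, loads the MCM ring, the motor of the replicative helicase. Mcm10, Cdc45 and the GINS complex then switch the helicase on, polymerase alpha with primase lays down primers, and polymerases delta and epsilon extend them with the clamp Pcna, which replication factor C loads. Many of these genes are textbook targets of the E2F transcription factors, which bind sites such as TTTCCCGC and TTTGGCGC, and many cell cycle promoters carry CCAAT boxes bound by NF-Y.

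A gene was scored by the deposited peaks that touched the 1 kb either side of either annotated gene end, or, where said, the whole gene with 1 kb on each side. For the strand and the 5′ end, 35 of the 42 genes were matched in a RefSeq promoter table (GRCm38.p6). Mcm4, Gins1, Gins2, Gins4, Rfc2, Prim2 and Pole were scored by gene ends alone. The H3K4me3 libraries held 11319701 and 6185767 filtered fragments in WT and 5519477 and 5938102 in KO, so WT library 1 was the deepest of the 4. Called peaks numbered 17469 and 16088 for WT against 10406 and 11289 for KO. The median peak was 1218 and 1054 bp long in WT and 540 and 579 bp in KO over the whole genome. Every difference in length or presence given here therefore stands on libraries in which KO peaks were shorter and fewer genome-wide, and members are set beside all genes. Of the fibroblast markers, 17 of 19 had H3K4me3 at an end of the gene in at least 1 library, where 55.5% of all genes did. By library the fibroblast count was 17 and 15 in WT and 9 and 9 in KO. Over all 21627 genes it was 11934 and 11398 in WT and 8277 and 8837 in KO. None of the 4 pluripotency and none of the 4 myogenic markers had H3K4me3 there. Haematopoietic markers had it in 1 of 4, endothelial markers in 1 of 4 and epithelial markers in 1 of 5. Neural markers had it in 3 of 4, in both WT libraries and in neither KO library. At Fbxw7 itself, H3K4me3 peaks at a gene end reached 2686 and 1404 bp in WT, were absent from KO library 1 and reached 416 bp in KO library 2; the deleted part of the gene is not stated, so this does not check the genotype.

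The promoters shown first are those of the 6 genes with H3K4me3 in WT but not in KO, followed by 3 MCM ring genes that hold an E2F-type site. Each line gives the 250 bases before the first listed RefSeq start, 5′ to 3′ on the gene's strand, with GRCm38.p6 coordinates. Capitals mark exact matches, on either strand, to TTTCCCGC, TTTGGCGC or CCAAT (whose reverse complement reads ATTGG).
Mcm2 (chr6:88898781-88899030, minus strand): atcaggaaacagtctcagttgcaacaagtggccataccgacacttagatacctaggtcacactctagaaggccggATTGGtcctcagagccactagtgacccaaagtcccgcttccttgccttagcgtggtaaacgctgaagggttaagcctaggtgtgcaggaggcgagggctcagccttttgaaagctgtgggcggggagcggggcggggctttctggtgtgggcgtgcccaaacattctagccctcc
Mcm3 (chr1:20820313-20820562, minus strand): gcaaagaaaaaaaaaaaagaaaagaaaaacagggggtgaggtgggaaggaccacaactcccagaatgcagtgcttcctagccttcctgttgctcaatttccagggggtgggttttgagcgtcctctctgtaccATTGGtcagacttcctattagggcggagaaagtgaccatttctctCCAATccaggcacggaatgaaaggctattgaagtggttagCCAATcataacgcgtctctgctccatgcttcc
Cdc6 (chr11:98907901-98908150, plus strand): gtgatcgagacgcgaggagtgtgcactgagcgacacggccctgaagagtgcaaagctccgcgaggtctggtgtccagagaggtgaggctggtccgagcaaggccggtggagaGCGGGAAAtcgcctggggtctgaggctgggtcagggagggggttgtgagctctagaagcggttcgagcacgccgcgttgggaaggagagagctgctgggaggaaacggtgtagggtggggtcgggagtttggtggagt
Cdt1 (chr8:122567765-122568014, plus strand): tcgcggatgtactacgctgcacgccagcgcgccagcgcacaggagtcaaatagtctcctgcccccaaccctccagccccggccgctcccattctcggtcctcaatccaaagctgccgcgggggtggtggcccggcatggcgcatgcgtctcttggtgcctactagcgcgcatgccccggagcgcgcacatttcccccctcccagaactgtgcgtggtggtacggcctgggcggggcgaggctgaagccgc
Pold2 (chr11:5878257-5878506, minus strand): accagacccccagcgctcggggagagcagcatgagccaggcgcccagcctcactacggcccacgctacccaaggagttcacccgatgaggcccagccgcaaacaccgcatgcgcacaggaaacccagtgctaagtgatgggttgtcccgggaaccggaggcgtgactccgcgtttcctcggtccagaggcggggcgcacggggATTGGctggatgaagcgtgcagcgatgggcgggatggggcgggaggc
Pold4 (chr19:4231643-4231892, plus strand): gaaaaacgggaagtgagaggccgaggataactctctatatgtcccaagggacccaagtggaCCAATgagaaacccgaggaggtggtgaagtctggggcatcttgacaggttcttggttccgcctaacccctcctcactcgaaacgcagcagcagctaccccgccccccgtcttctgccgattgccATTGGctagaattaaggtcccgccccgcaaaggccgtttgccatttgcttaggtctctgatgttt
Mcm5 (chr8:75109259-75109508, plus strand): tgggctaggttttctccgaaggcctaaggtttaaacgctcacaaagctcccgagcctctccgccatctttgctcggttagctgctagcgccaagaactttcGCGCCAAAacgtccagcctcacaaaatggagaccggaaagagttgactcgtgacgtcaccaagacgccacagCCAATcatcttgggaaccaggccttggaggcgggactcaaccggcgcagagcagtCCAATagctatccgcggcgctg
Mcm6 (chr1:128359706-128359955, minus strand): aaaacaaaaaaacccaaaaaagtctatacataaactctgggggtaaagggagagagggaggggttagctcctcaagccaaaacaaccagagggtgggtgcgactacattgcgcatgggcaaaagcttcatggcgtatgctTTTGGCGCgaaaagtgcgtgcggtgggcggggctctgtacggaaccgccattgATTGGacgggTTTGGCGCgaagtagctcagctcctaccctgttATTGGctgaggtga
Mcm7 (chr5:138171884-138172133, minus strand): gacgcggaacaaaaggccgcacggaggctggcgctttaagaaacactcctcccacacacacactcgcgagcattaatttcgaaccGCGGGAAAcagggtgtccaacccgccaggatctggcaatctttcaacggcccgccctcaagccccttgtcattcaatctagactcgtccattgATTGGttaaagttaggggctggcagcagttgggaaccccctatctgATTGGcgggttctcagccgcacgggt

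Among the 35 genes with a promoter sequence, either E2F-type site was found in 6, or 17.1%. It was found in 2.57% of genes with H3K4me3 and in 1.76% of all promoters. TTTCCCGC stood before the first listed start of Mcm7, Orc3, Cdc6 and Gins3 (11.4% of the genes), against 1.81% of 10667 genes with H3K4me3 and 1.24% of all 17273 promoters of the same length in the table. At Cdc6 and Mcm7 that start lies 442 and 228 bp inside the annotated gene, and both matches lie within the gene. The stretch printed for Cdc6 lies wholly inside it. TTTGGCGC stood upstream of Mcm5 and Mcm6 (5.71%), against 0.787% and 0.538%. The shorter string GCGGGAA, whose match overlaps a TTTCCCGC match wherever that site occurs, was found in 7 promoters (20%), against 7.07% and 5.01%. CCAAT was found in 21 promoters (60%), against 36.9% of genes with H3K4me3 and 36.7% of all promoters, and 3 copies stood upstream of Mcm3 and of Rpa2. The Cdt1 promoter held none of these strings in the window printed. The median observed over expected CpG ratio was 0.813, against 0.732 for genes with H3K4me3 and 0.545 for all promoters. Among the 6 promoters of genes marked in WT alone, only Cdc6 held an E2F-type site, and 4 held CCAAT (Mcm2, Mcm3, Pold2 and Pold4). Among the 29 others, 5 held an E2F-type site and 17 held CCAAT. These are matches of letters, not measured binding sites.

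H3K4me3 was present at nearly all replication genes in WT. At gene ends, 39 of the 42 genes (92.9%) had a peak in 1 or more libraries, where 55.5% of all protein-coding genes did. The 3 others, Orc1, Orc4 and Rfc1, are annotated from an end more than 1 kb away from the 5′ end used here (3749, 2821 and 2978 bp away), and each had a peak in all 4 libraries when the whole gene was searched. Over the whole gene, all 42 had H3K4me3 in both WT libraries, where 61.4% of all genes had it in at least 1 library. In KO, 28 of the 39 genes, all marked in both WT libraries, kept a peak in both libraries, 71.8%. Over all genes, 7564 of the 11349 with a peak in both WT libraries did so. Of all genes with a peak in any library, 63.1% had one in all 4. No gene was marked in KO alone (0% of all genes). The grid of peak presence shows which genes these were.

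**Figure D1:**
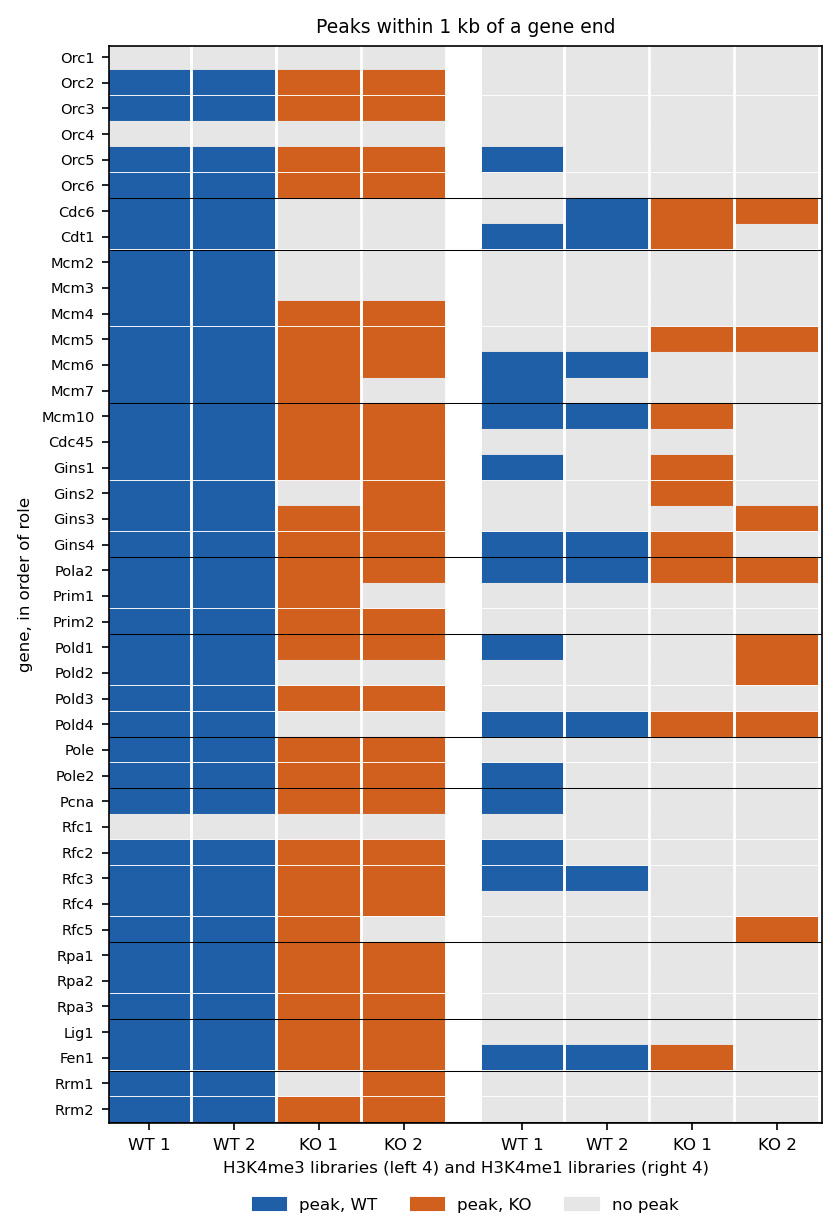
Presence of a peak within 1 kb of a gene end for the 42 replication genes (rows, grouped by role) in the 4 H3K4me3 libraries (left columns) and the 4 H3K4me1 libraries (right columns), where blue is a peak in WT, orange a peak in KO and grey no peak. H3K4me3 fills both WT columns in 39 rows, and 6 of these rows are grey in both KO columns, while H3K4me1 is scattered.

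The 6 genes with an H3K4me3 peak in both WT libraries and neither KO library were Mcm2, Mcm3, Cdc6, Cdt1, Pold2 and Pold4. They made up 15.4% of the 39 genes, where 15.3% of all 11993 genes with a peak had the same pattern, so their number was at the background. Over the whole gene the same 6 genes were called, where 12.6% of all genes were, and with the 5′ end alone they were the same 6 again. With the 4 lists shortened to equal length 3 of them remained (Mcm2, Mcm3 and Pold4), so Cdc6, Cdt1 and Pold2 lost the pattern. With peaks at a -log10 q of 10 or more 28 genes had it, where 62.8% of all genes with such a peak did. With only 2 libraries against 2, an exact two-sided permutation test cannot give a p below 0.333, and no single gene can pass a threshold on p.

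Both loading factors belonged to this group. Cdc6, the ATPase that recruits the MCM ring to the origin complex (chr11:98907709-98923942), had H3K4me3 peaks of 579 and 769 bp in WT, with deposited pileups of 23 and 17 fragments at the summit, among the weakest of the 39 genes. Cdt1, the partner that delivers the ring (chr8:122568015-122573130), had long peaks of 1946 and 1714 bp with pileups of 53 and 32. Both spanned the 5′ end: the Cdc6 peak ran from position -318 to 260 and from -318 to 450 around the start, and the Cdt1 peak from -841 to 1104 and from -797 to 916. Neither gene had a peak in KO.

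In the MCM ring, Mcm2 (chr6:88883474-88898780) had peaks of 618 and 525 bp in WT with pileups of 86 and 49. Mcm3 (chr1:20802966-20820312) had peaks of 1174 and 1090 bp with pileups of 51 and 29. In both genes the WT peaks began inside the transcribed part, at positions 13 and 27 for Mcm2 and at position 47 in both libraries for Mcm3, so that none of these 4 peaks reached the promoter sequence printed above. Neither gene had a KO peak. Mcm4 (chr16:15623897-15637400), Mcm5 (chr8:75109468-75128439) and Mcm6 (chr1:128331575-128359705) had peaks in all 4 libraries. An end of Mcm4 lies within 1 kb of an end of Prkdc, so its interval may be shared. The longest Mcm4 peak was 1940 and 1628 bp in WT and 472 and 386 bp in KO. That of Mcm5 was 1594 and 1263 bp in WT and 317 and 501 bp in KO. That of Mcm6 was 1590 and 1454 bp in WT and 400 and 351 bp in KO. For all 3 genes both KO peaks were shorter than both WT peaks, which held for 97.3% of the 7564 genes with a peak in all 4 libraries.

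Mcm7 (chr5:138164583-138172111) had the longest WT peaks of the 39 genes in both libraries, 2625 and 2450 bp, running from position -720 to 1904 and from -553 to 1896. Its start lies within 1 kb of an end of Ap4m1, so this interval is shared by 2 genes. In KO library 1 the interval was split into a stretch from -440 to -166 and another from 954 to 1386, with no peak over the start itself. In KO library 2 a single peak from 885 to 1717 remained, which lies outside the 1 kb window at the gene end and inside it for the first listed start. Scored at gene ends, Mcm7 was thus present in 3 libraries, and scored over the whole gene, in all 4. At Mcm5, the KO library 1 signal was likewise split, from -524 to -208 and from 77 to 355, and in KO library 2 the peak ran from -710 to -210. The stretch without a KO peak at Mcm5 holds the TTTGGCGC match, which stands 149 bases before the start, and both CCAAT matches, 77 and 22 bases before it.

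**Figure D2:**
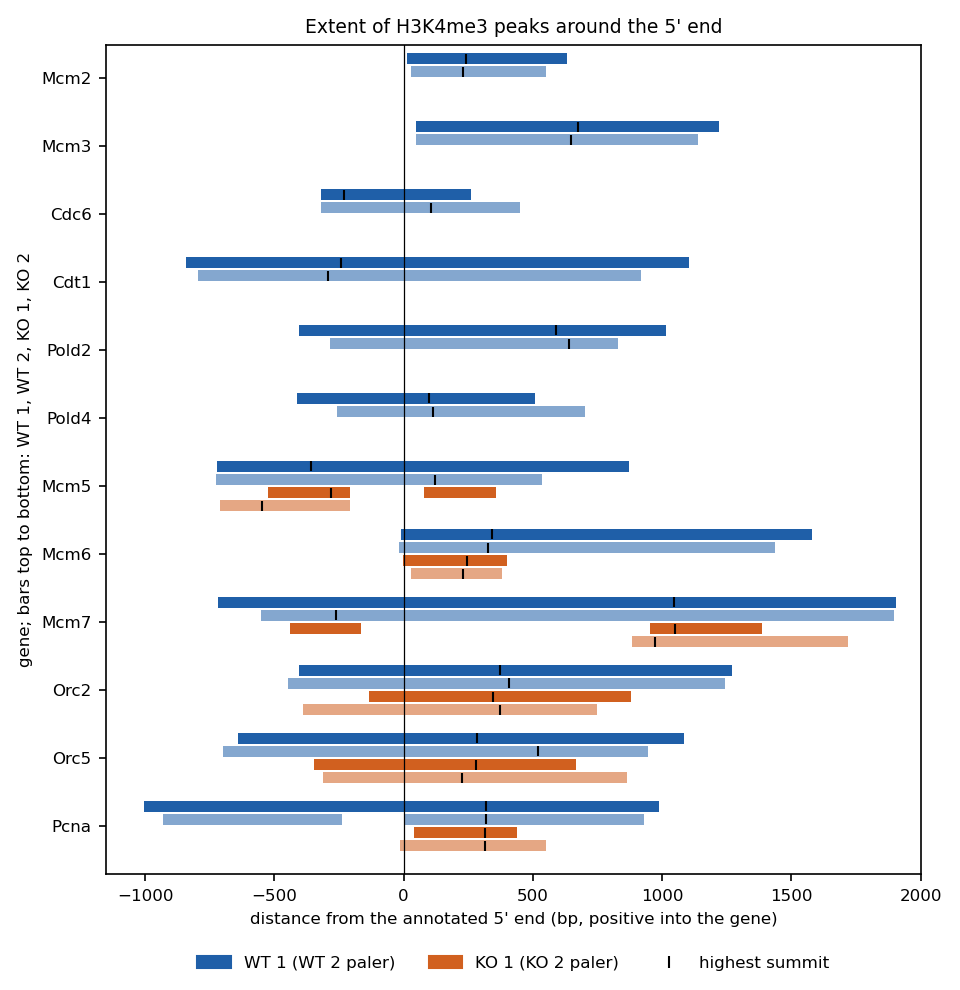
Extent of the H3K4me3 peaks that touch the 1 kb either side of the 5′ end in 12 replication genes, in bp from the first listed start with positive values into the gene; blue bars are WT and orange bars KO (the second library of each paler), and ticks mark the highest summit. The first 6 genes have blue bars only, Mcm5 and Mcm7 have no orange bar over the start, and at Orc2 and Orc5 both orange bars cover it.

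The origin recognition genes gave values that differed between members. None was marked in WT alone, and over the whole gene all 6 had H3K4me3 in all 4 libraries. Over all genes with a whole-gene peak, 12.6% were marked in WT alone and 68.1% had a peak in all 4 libraries. Orc2, a core subunit (chr1:58462771-58505113), had peaks of 1676 and 1691 bp in WT and 1011 and 1136 bp in KO. Orc3 (chr4:34566781-34614963) had 1867 and 1661 bp in WT and 991 and 1351 bp in KO, and Orc5 (chr5:22486480-22550338) 1728 and 1646 bp in WT and 1013 and 1175 bp in KO. Ranked within the 7564 genes that had H3K4me3 in every library, these KO lengths were long: Orc2 stood at length percentiles 86.7 and 88.3 in KO, from 53.8 and 73.0 in WT. Orc5 stood at 86.8 and 90.1 in KO, from 57.4 and 69.8 in WT. Mcm6 moved the other way, from length percentiles 46.9 and 55.5 in WT to 20.04 and 7.51 in KO. Peaks at Orc2 and Orc5 covered the annotated start in all 4 libraries, as did those at Orc3, Gins3 and Rrm2.

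Orc6, the most loosely bound subunit (chr8:85299632-85308279), had the highest pileups of the 39 genes, 187 and 93 in WT, and peaks of 2498 and 2257 bp. In KO the peaks were 1032 and 358 bp with pileups of 19 and 23, so the 2 KO libraries differed in length far more than the WT libraries did. The start of Orc6 lies within 1 kb of an end of Vps35. Orc1 had whole-gene peaks of up to 1932 and 921 bp in WT and 361 and 650 bp in KO. Orc4 had 1735 and 1859 bp in WT and 353 and 418 bp in KO.

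In the 28 genes marked in all 4 libraries, the longest KO peaks of both libraries were shorter than both WT peaks in 28 of 28, where this held for 97.3% of all 7564 genes. The median log2 ratio of KO to WT length was -1.13 over the 28 genes and -1.14 over all 7564, so the replication genes were shortened as genes in general were. For each of the 28 the exact two-sided permutation p was 0.333, the smallest the design allows. The ratio ranged from -2.06 to -0.54 among them. The lowest were Mcm4 (-2.06), Mcm6 (-2.02) and Orc6 (-1.97), followed by Mcm5 (-1.83). The highest were Rfc3 (-0.54), a clamp loader subunit, Lig1 (-0.60), the ligase that joins Okazaki fragments, and Orc3 (-0.61), next to Orc5 (-0.63) and Orc2 (-0.65). The median was -2.02 over the 3 MCM ring genes and -0.64 over the 4 origin recognition genes, of which Orc6 stood at -1.97. These medians leave out Mcm2, Mcm3, Mcm7, Orc1 and Orc4, which lacked a gene-end peak in 1 or more libraries. Over the whole gene, the longest Orc1 peaks were 1932 and 921 bp in WT and 361 and 650 bp in KO. Those of Orc4 were 1735 and 1859 bp in WT and 353 and 418 bp in KO. The ratio also takes the longest peak alone. In KO library 1 the signal was split into 2 peaks at Mcm4 (835 bp summed) and at Mcm5 (596 bp summed). By summed length their ratios are less low. Mcm6 and the 4 origin recognition genes were not split. The difference between the group medians thus depends on which genes the window admits and on the use of the longest peak. It was noticed in the data and was not tested. Rfc3 had peaks of 1025 and 958 bp in WT and 641 and 729 bp in KO. Lig1 had 1675 and 1273 bp in WT and 913 and 1017 bp in KO. Without the deep WT library 1 the median ratio of the 28 genes was -0.90, and without WT library 2 it was -1.46.

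**Figure D3:**
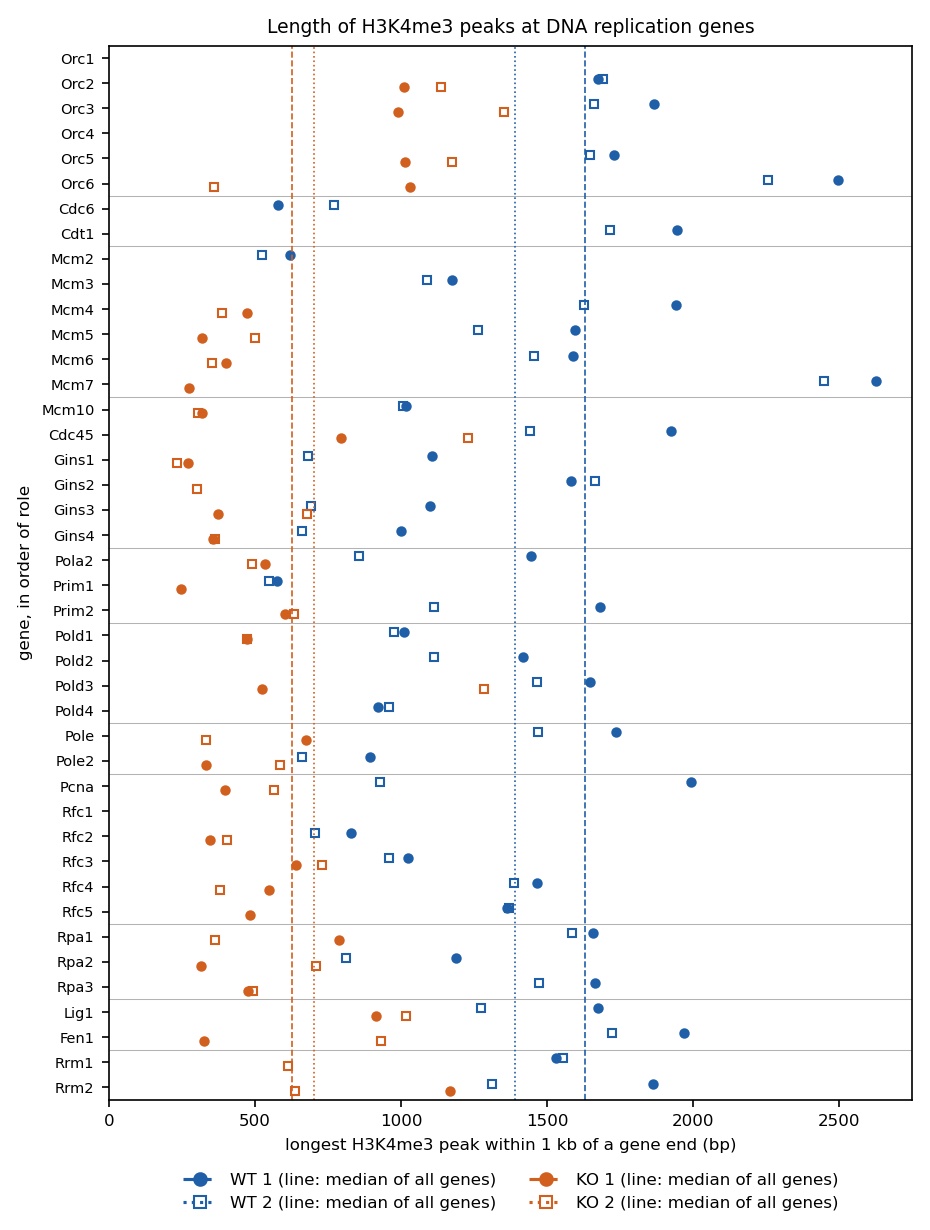
Length in bp of the longest H3K4me3 peak within 1 kb of a gene end for each replication gene (rows, grouped by role), with blue WT and orange KO, filled circles for library 1 and open squares for library 2; vertical lines give the median of all 7564 genes with a peak in all 4 libraries. WT points lie to the right of KO points in every row with all 4, by the least at Gins3 (690 against 677 bp) and by the most at Orc6, Mcm4 and Mcm6.

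Helicase activation genes had H3K4me3 in all 4 libraries in 5 of 6 cases, where 63.1% of all genes with a peak did. Mcm10 had peaks of 1016 and 1007 bp in WT and 319 and 303 bp in KO. Cdc45, the helicase cofactor that shares its start region with Ufd1, had 1925 and 1441 bp in WT and 795 and 1228 bp in KO. Of the GINS genes, Gins1 had WT peaks of 1105 and 680 bp, Gins3 of 1099 and 690 bp, and Gins4 of 1001 and 659 bp. Their KO peaks were 270 and 233 bp for Gins1, 373 and 677 bp for Gins3, and 355 and 363 bp for Gins4. Gins2 had 1583 and 1663 bp in WT, no peak in KO library 1 and 300 bp in KO library 2.

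Among polymerase genes, a peak was lacking in both KO libraries at 2 of the 4 polymerase delta genes and at neither polymerase epsilon gene. Over all genes with a peak, 15.3% were marked in WT alone. With so few genes per role, differences between roles were not tested. Pold2, an accessory subunit (chr11:5872180-5878256), had peaks of 1417 and 1112 bp in WT with pileups of 37 and 21, and Pold4, the smallest subunit (chr19:4231893-4233634), had 921 and 958 bp with pileups of 78 and 37. Neither had a peak in KO. Pold1, the catalytic subunit (chr7:44532744-44548815), had 1009 and 974 bp in WT and 471 and 472 bp in KO, and Pold3 had 1646 and 1464 bp in WT and 525 and 1285 bp in KO. For polymerase epsilon, Pole had 1736 and 1469 bp in WT and 675 and 333 bp in KO, and Pole2 893 and 662 bp in WT and 331 and 586 bp in KO. Of the priming genes, Pola2 had 1445 and 855 bp in WT and 533 and 488 bp in KO. Prim2 had 1680 and 1111 bp in WT and 604 and 632 bp in KO. Prim1, the catalytic primase subunit, had the shortest WT peaks of the 39 genes by the mean of both libraries, 575 and 546 bp (Mcm2 was shorter in WT library 2, at 525 bp), a peak of 246 bp in KO library 1 and none in KO library 2.

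At the clamp, Pcna (chr2:132249286-132253180) had pileups of 167 and 71 in WT, below only Orc6 among the 39 genes in both libraries. Its longest peaks were 1992 and 927 bp in WT and 398 and 564 bp in KO. In WT library 2 the signal was split into peaks from -932 to -240 and from 2 to 928, which together covered 1620 bp. The WT library 1 peak ran from -1005 to 986, and the KO peaks from 42 to 439 and from -13 to 550, with all 4 summits between positions 313 and 319. Of the loader genes, Rfc2 had 830 and 704 bp in WT and 344 and 403 bp in KO, and Rfc4 had 1466 and 1388 bp in WT and 546 and 378 bp in KO. Rfc5 had 1364 and 1369 bp in WT, 483 bp in KO library 1 and no peak in KO library 2. The single-strand binding genes all had H3K4me3 in all 4 libraries, as did 63.1% of all genes with a peak. Rpa1 had 1659 and 1585 bp in WT and 788 and 362 bp in KO. Rpa3 had 1665 and 1474 bp in WT and 474 and 492 bp in KO, and Rpa2 had 1187 and 811 bp in WT and 315 and 709 bp in KO. Fen1, the nuclease that trims Okazaki flaps (chr19:10199132-10204393), had 1968 and 1724 bp in WT and 325 and 932 bp in KO, and its start region is shared with Tmem258. For ribonucleotide reductase, which makes the DNA precursors, Rrm2 had 1864 and 1313 bp in WT and 1169 and 636 bp in KO. Rrm1 had 1530 and 1554 bp in WT, none in KO library 1 and 611 bp in KO library 2.

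Around the start, the peaks of the 35 genes with a known 5′ end covered the start itself in 30 (WT library 1) and 27 (WT library 2) of 35 genes. In KO they did so in 9 of 28 and 9 of 27 genes with a peak. Over all genes, WT peaks covered the start in 79.9% and 67.2% and KO peaks in 24.97% and 28.4%. The median outer edges lay at -479 and 962 in WT library 1, at -436 and 841 in WT library 2, at -187 and 454.5 in KO library 1 and at -13 and 611 in KO library 2. Over all genes they lay at -433 and 1085, at -335 and 1007, at 37 and 726 and at 23 and 748, in the same order. The highest summit lay downstream of the start in 26 and 25 of 35 genes in WT and in 19 of 28 and 21 of 27 in KO. Over all genes it did so in 79.0% and 78.8% in WT and in 80.4% and 80.3% in KO. In both genotypes most summits lay inside the gene, and both median edges of the replication genes stood nearer to the start in KO. For genes with several listed starts the first was used; the Lig1 peaks lie well inside its first listed start, near other listed starts.

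Pileup counts fragments at the summit and was not scaled to depth, so it was compared as a percentile among the 7564 genes within each library. The 28 replication genes had median percentiles of 29.6 and 32.4 in WT and 44.0 and 29.0 in KO, with 17 and 19 of 28 below the 50th percentile in WT. This low rank depended on the genes counted and the measure. The WT median was 31.0 as scored, 50.4 with the 5′ end alone and 54.0 by fold enrichment over local background. The 5′ end setting drops Mcm4, Gins1, Gins4, Rfc2, Prim2 and Pole and adds Mcm7, Orc1, Orc4 and Rfc1. Its window and its gene set were not separated. The median KO minus WT difference was -2.52 percentile points. Single genes moved further. Gins4 stood at 30.3 and 20.8 in WT and 51.9 and 77.9 in KO, the largest upward difference (39.4 points), but its sign turned by fold enrichment (-1.41). Mcm5 stood at 40.9 and 13.3 in WT and 51.9 and 72.8 in KO (35.2 points), and Mcm4 at 22.8 and 20.8 in WT and 59.7 and 46.9 in KO (31.5 points). Fen1 stood at 77.2 and 84.9 in WT and 44.0 and 46.9 in KO (-35.6 points). Pold1 stood at 44.8 and 52.3 in WT and 9.14 and 19.6 in KO (-34.2 points), and Orc6 at 99.3 and 99.4 in WT and 66.7 and 77.9 in KO (-27.1 points). In each of these 6 genes, picked as the extremes of this difference, the WT and KO percentiles did not overlap. Over all genes, 21.8% lay higher in both KO libraries and 21.7% lay lower in both.

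Percentiles in both KO libraries lay above both WT libraries in 5 of the 28 genes (Pole, Gins4, Mcm5, Mcm4 and Cdc45), where 21.8% of all genes did so. They lay below in 7 (Gins1, Orc3, Rpa2, Pold1, Orc6, Pola2 and Fen1), where 21.7% of all genes did. Both counts were near the background. Mcm4 and Mcm5 thus had KO peaks that were short for these libraries but of middling or high pileup. KO pileups were small numbers, from 7 to 29 fragments over the 28 genes, so a few fragments move a gene far in rank.

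**Figure D4:**
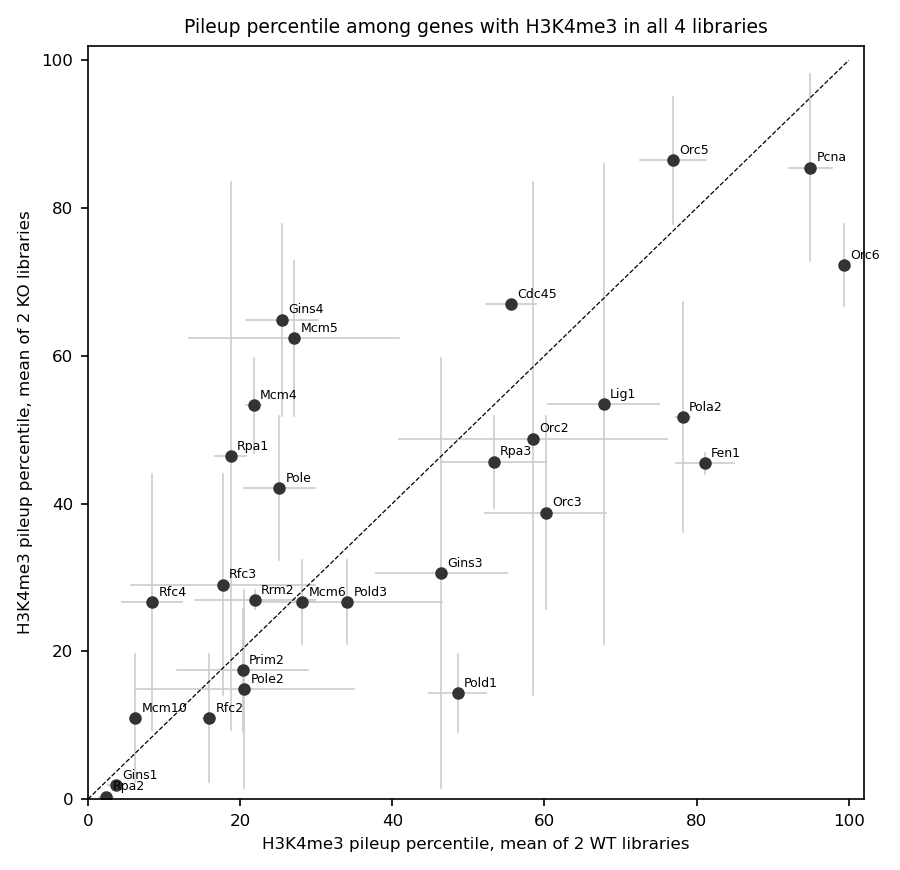
Percentile of H3K4me3 pileup among the 7564 genes with a peak in all 4 libraries, for 28 replication genes, with the mean of 2 WT libraries on the x axis and the mean of 2 KO libraries on the y axis; grey lines join the 2 libraries of a genotype and the dashed line marks equal percentiles. Gins4, Mcm5 and Mcm4 lie far above the line, Fen1, Pold1 and Orc6 far below, and many grey KO lines are long.

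Genes without a KO peak were mostly weak in WT. Ranked by pileup in WT library 2 and divided into 5 classes, the genes that had H3K4me3 in WT library 1 and 2 were marked in WT alone in 52.8% of the weakest class (6 to 29 fragments), and in 12.8%, 7.02%, 4.89% and 4.19% of the next classes. Mcm3, Pold2 and Cdc6 were in the weakest class, Cdt1 and Pold4 in the next (30 to 41 fragments) and Mcm2 in the middle one (42 to 49 fragments). The 10 genes in the upper 2 classes all had a peak in at least 1 KO library. These classes were chosen after the values had been seen, and the part of weak WT signal in the missing KO peaks was not tested.

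The starts of 10 of the 35 genes lay within 1 kb of an end of another protein-coding gene (Mcm7, Orc3, Orc6, Cdc45, Pcna, Pold1, Pole2, Rpa1, Rpa3 and Fen1). None of these 10 was marked in WT alone, and 9 had H3K4me3 in all 4 libraries. Of the 25 starts with no such neighbour, 22 had a peak at a gene end, and 6 of the 22 (27.3%) were marked in WT alone. Over all genes the shares marked in WT alone were 8.18% with a neighbour and 16.7% without. This split was chosen after the values had been seen and was not tested. It leaves out Mcm4, Gins2 and Pole, which have no listed 5′ end. Each has a gene end within 1 kb of another gene (Prkdc, Gse1 and Pxmp2, respectively).

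H3K4me1 was seldom called at a gene end in all 4 libraries. At gene ends, 21 of 42 genes (50%) had an H3K4me1 peak in at least 1 library, where 28.1% of all protein-coding genes did. Only Pola2 and Pold4 had one in all 4 libraries, 2 of 21, where 18.2% of all genes with a peak did. Pola2, the regulatory subunit of polymerase alpha, had peaks of 930 and 528 bp in WT and 389 and 435 bp in KO. Pold4, one of the genes without KO H3K4me3, had H3K4me1 peaks of 542 and 511 bp in WT and 696 and 339 bp in KO. Mcm6 and Rfc3 had H3K4me1 in WT alone, where 6.31% of all genes with a peak did: Mcm6 had 411 and 397 bp with pileups of 14 and 13, and Rfc3 had 511 and 404 bp with pileups of 9 and 11. Mcm5 had it in KO alone, where 5.19% of all genes did, with 282 and 456 bp and pileups of 13 and 14. No H3K4me1 peak at a gene end of the 42 genes reached a -log10 q of 10. The other 16 genes with a peak had it in other combinations of libraries. Cdc6 had H3K4me1 in WT library 2 (384 bp) and in both KO libraries (1217 and 546 bp).

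Over the whole gene, 35 of 42 genes (83.3%) had an H3K4me1 peak in at least 1 library, where 59.1% of all genes did. Of the 35, 10 had one in all 4 libraries (28.6%), where 51.8% of all genes with a peak did. Orc5, Rfc3, Pole and Rrm2 had one in WT alone, where 4.7% of all genes did, and Mcm5 in KO alone, where 2.75% did. Mcm6 left the first group because a further peak in KO library 2 lay inside the gene. Prim2, by far the longest of these genes at 216001 bp, held 10 and 11 WT peaks and 9 and 7 KO peaks, and Pola2 held 3 and 4 in WT and 5 in each KO library. Mcm2, Mcm3, Mcm4, Rfc4, Prim1, Rpa2 and Rpa3 had none. Among the 6 genes without KO H3K4me3, H3K4me1 was called at gene ends in 2 and 3 genes in WT and in 3 genes in each KO library. Of all genes of the same H3K4me3 pattern, 23.9% and 18.5% had H3K4me1 in WT and 24.4% and 18.9% in KO.

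No MLL4 peak lay at a replication gene, in any of the 4 MLL4 libraries, at gene ends, over the whole gene or within 10 kb of it. Of all 21627 genes, only 13 and 14 had an MLL4 peak at an end in WT and 1 and 0 in KO. Its absence from 42 genes is therefore no trait of replication genes. On these chromosomes the WT lists held 60 and 69 peaks and the KO lists 49 and 40, from 4435103 to 5838305 fragments, and the nearest peak to any of the 42 genes was 286124 bp from Cdt1. Why the MLL4 lists are so short was not tested.

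Other genes of the pathway were scored in the same way. Of 40 further replication, fork and nucleotide genes, 38 had the mark at an end, 27 in all 4 libraries, and 5 in WT alone (Donson, Ticrr, Dna2, Chaf1b and Dscc1), where 15.3% of all genes with a peak did. Their median log2 length ratio was -1.20. Of 24 E2F and G1/S regulators, 22 had H3K4me3 there, 13 in all 4 libraries and 7 in WT alone (E2f2, E2f3, E2f7, E2f8, Ccna2, Cdkn1a and Cdkn1b). These 7 were 31.8% of the 22, where 15.3% of all genes with a peak were marked in WT alone. Of them, E2f2, E2f7 and Cdkn1b stayed so over the whole gene, 12.5% of the 24 against 12.6% of all genes with a peak. Of 40 mitosis and spindle checkpoint genes, 39 had H3K4me3, and 27 had it in all 4 libraries. Against 15.3% of all genes with a peak, 5 of these 39 mitosis genes (12.8%) were marked in WT alone (Ccnb2, Cdc20, Spc25, Melk and Anln). Their median log2 length ratio was -1.50, against -1.13 for the replication genes and -1.14 for all genes, and this difference was not tested. The mitosis promoters held an E2F-type site in 1 of 34 and CCAAT in 24 of 34 (70.6%), where 1.76% and 36.7% of all promoters did.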

How the data were processed

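Peak lists from Cut & Run in 12 libraries were used as deposited. Per the file headers, the authors called narrow peaks in each library separately with MACS2 2.1.0.20150731, with no control library, a q cutoff of 0.01, fragments extended to 147 bp and a local background of 10000 bp. The build is mm10, and the submitters' processing notes also name Bowtie2, SAMtools 1.5, bedtools, deepTools and HOMER 4.10. Each deposited list gives the pileup (signal at the summit, not scaled to depth), the fold enrichment (a ratio to local background), and -log10 p-values and q-values per peak, which are the authors' values. Up to 2 duplicates per position were kept in the H3K4me1 lists and in H3K4me3 WT library 1, and 1 elsewhere, which raises pileup in that deeper library.

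Peaks were joined to RefSeq gene ends (GRCm38.p6, the same build as mm10) with Python 3.11.15, pandas 2.3.3 and numpy 2.4.6, and the joining was tested on simulated peaks. The longest peak and the highest pileup per gene were kept. Patterns were counted with no test. Single genes were tested with an exact two-sided permutation test (scipy 1.17.1). The members, gene lists and role groups were chosen with earlier results of these data known. Values per library are printed for the MCM ring, for genes marked in 1 genotype alone, and for the 3 highest and 3 lowest genes by WT length, length ratio and percentile difference; those of other members are printed as description. Alternatives were other windows, lists of equal length, a stricter q, other ranks and leaving out each library. No depth other than the fragment totals in the headers was known.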

Additional observations from a re-analysis of the deposited data

How the results depend on the processing

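The 6 genes with H3K4me3 in WT alone were the same 6 with a 500 bp window, over the whole gene, with the 5′ end alone and without either WT library. A 2 kb window gave 7 (Orc4 added), 200 bp of cover gave 7 (Lig1 added), and leaving out a library gave 6 to 9. With lists shortened to equal length 3 remained (Mcm2, Mcm3 and Pold4; 5.76% of all genes), and at -log10 q of 10 or more 28 genes were in WT alone and 3 in all 4 libraries; leaving out a library gave 28 to 31 in all 4. The median length ratio was 0.0093 after the median of all genes was subtracted, and -1.46 to -0.90 without 1 library. The median percentile difference was -7.05 with the 5′ end alone, 6.95 at the stricter q, -22.5 by rank among all peaks, and -2.64 to -0.99 without 1 library. The 5′ end setting, here and below, also changes which genes are counted. The median WT percentile was 50.4 with the 5′ end alone, 29.0 with equal lists, 44.99 at the stricter q, 54.0 by fold enrichment, 61.8 among all peaks, and 29.7 to 33.9 without 1 library. For single genes, 0 of 330 length ratios and 4 of 152 percentile differences reversed: Orc3 (3.40) and Gins4 (-1.41) by fold enrichment, Pole (-6.40) and Cdc45 (-3.14) by rank among all peaks.

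H3K4me1 in at least 1 library was found at 35 genes over the whole gene, at 0 gene ends at the stricter q, and at 16 to 21 without 1 library. H3K4me1 in WT alone was found at 1 gene with a 500 bp window (Mcm10), at 4 over the whole gene, at 1 with equal lists (Fen1), at 0 at the stricter q, at 1 with 200 bp of cover (Cdt1), and at 2 to 7 without 1 library. H3K4me1 in KO alone was found at 0 genes with a 500 bp window, at the stricter q and with 200 bp of cover, and at 1 to 4 without 1 library. The cause of these changes was not tested.

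Same-numbered libraries share only a number (correlation of their deviations 0.00924 over 7564 genes). With the number as a replicate block, the values were unchanged by construction (6 and 28 genes, -1.13, -2.52 and 31.0, and 21, 2 and 1 genes for H3K4me1), and 28 of 28 genes had shorter KO peaks in both pairs; the smallest p with pairs kept is 0.5. Low KO pileups, 2 libraries a group and the deeper WT library 1 limit the precision.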
